A study of Brassica rapa subsp. pekinensis with 6 samples.

Results

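The phosphatidylethanolamine-binding protein (PEBP) family is represented here by 6 genes of Chinese cabbage, chosen by their gene identifiers: the *FLOWERING LOCUS T* (*FT*) copies *Bra022475* and *Bra004117*, *BROTHER OF FT AND TFL1* (*BFT*; *Bra010052*), and the *TERMINAL FLOWER 1* (*TFL1*) copies *Bra028815*, *Bra005783*, and *Bra009508*. They are 6 of the 35616 genes with at least 1 read in the series. RNA-Seq compared developing flower buds of the wild-type doubled-haploid line ‘FT’ (libraries F1, F2, and F4) with those of *fsm* (libraries M1, M2, and M3), a female-sterile mutant with abnormal pistils, both at the full-bloom stage. The mutant is 1 line that came from ‘FT’ by isolated microspore culture with ethyl methanesulfonate, and it may carry other induced changes besides the recessive *fsm* locus. The study reports many single-base variants detected only in the wild type or only in *fsm*. It also considers the genetic backgrounds of the lines highly alike, with differences mainly at the mutation sites. The variants came from RNA-Seq reads, and how many sequence differences separate the lines is not known here. Also, each library held mixed buds from several plants. The line name ‘FT’ is not the gene symbol *FT*, and the line is called the wild type below.

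Proteins of this family are small regulators of the change from vegetative growth to flowering. In *Arabidopsis thaliana*, FT is the mobile signal that is made in leaf veins, travels to the shoot tip, and promotes flowering together with the bZIP protein FD. TFL1 binds the same partner and has the opposite effect, keeping the shoot meristem indeterminate, and BFT acts in the direction of TFL1. The 6 genes therefore include promoters and repressors of the same process, and the comparison asks how each stood in the buds of *fsm* against the wild type.

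Of the 6 genes, 4 rose in *fsm*: the *FT* copy *Bra022475*, *BFT*, and the *TFL1* copies *Bra028815* and *Bra009508*. The second *FT* copy, *Bra004117*, was the main *FT* transcript of wild-type buds and changed much less, and the third *TFL1* copy, *Bra005783*, was close to the limit of detection in both lines. The identity of the prevailing *FT* copy thus differed between the lines, with *Bra004117* ahead in each wild-type library and *Bra022475* ahead in each *fsm* library. The DEG rule of the study was used for these calls, with an adjusted p-value of no more than 0.001 and a log2 fold change of 4 or more in size, in edgeR's quasi-likelihood test over all genes. None of the 6 genes was called lower. The 4 genes called are also in the study's own list of DEGs from these libraries, so the calls are not independent of it. The calls of *Bra028815* and *Bra009508* rest on few reads and were lost with a prior count of 2 and with limma on log2(RPKM + 1) or log2(RPKM + 0.1), which left 2 calls. Of all genes tested, 2.91% were called higher in *fsm* by this rule, 2.34% lower, and 5.26% in either direction. With the study's first limit of 1 on the log2 scale, the same 4 genes were called (3 with limma on log2(RPKM + 1), where *Bra009508* was at 0.95), against 18.7% of all genes higher and 36.7% in either direction. The adjusted p-value alone was passed by 5 of the 6 genes, all higher in *fsm*, against 30.6% of all genes higher and 59.7% in either direction, so that this limit alone sets few genes apart. The libraries of the lines did not overlap for the same 5 genes, against 37.5% of all genes higher and 75% in either direction. The median log2 fold change was 5.02 over the 6 genes and -0.02 over all genes.

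**Figure D1:**
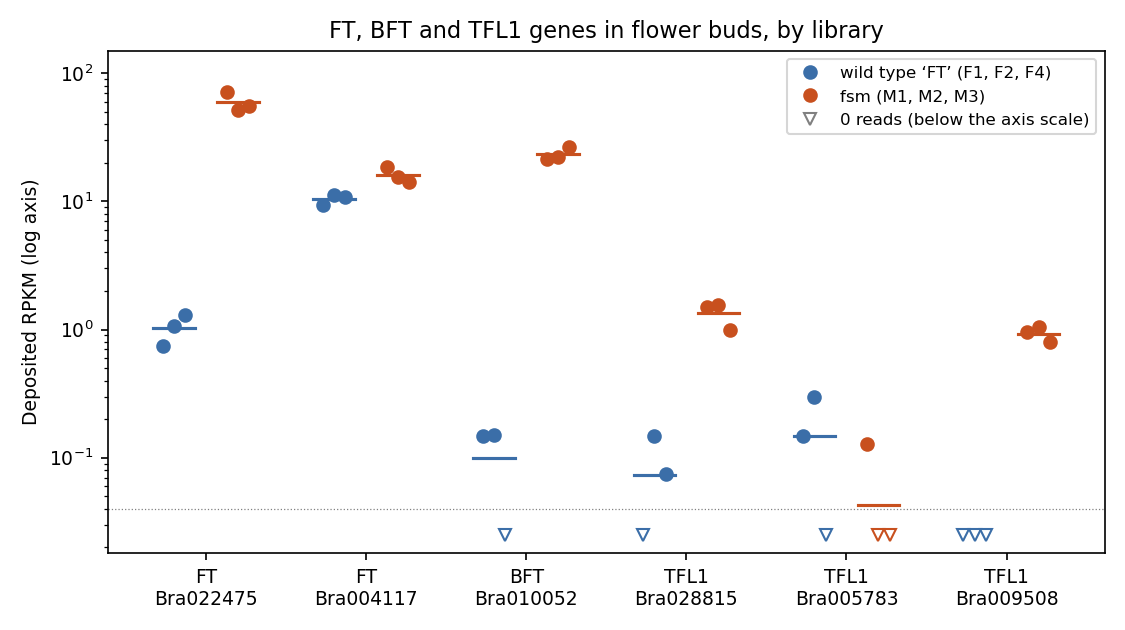
RPKM of the 6 genes in each library on a log axis, with wild-type libraries in blue, *fsm* libraries in orange, the mean of each line as a bar, and libraries with 0 reads as open triangles below the dotted line. The libraries of the lines are separate for each gene except the *TFL1* copy *Bra005783*, and the *FT* copy *Bra022475* moves from a mean of 1.03 to a mean of 59.4.

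In units of 1000 reads counted to genes, the depth of the libraries was 24990 to 25402 in the wild type and 28118 to 29367 in *fsm*. At these depths, 3 reads correspond to 0.102 to 0.120 CPM, which was taken as the limit of detection of a library, with counting error only. The genes are 528 to 540 bases long, so their read counts can be set beside each other almost directly, and levels of different genes are given as RPKM, which divides the reads by gene length and library depth. The bud is a mixture of organs, in which more cells with a transcript and more transcript per cell cannot be told apart.

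Pollen transcripts were set beside the PEBP genes as a description of the tissue. All 9 genes of a pollen list, namely *VGD1*, polygalacturonase, AGP23, and *RABA4D* genes, had at least 1 read in each library, and 8 of them had at least 3, the exception being the polygalacturonase gene *Bra025631* with 1, 1, and 2 reads in the *fsm* libraries. Their summed RPKM was 3300 to 3329 in the wild type and 156 to 183 in *fsm*, and each of the 9 was lower in *fsm* under the DEG rule. The list was taken from genes that the study names among the DEGs of these samples. Its calls and direction are thus fixed by the choice, stand as values, and are not independent evidence. Of all genes tested, 2.34% were called lower in *fsm* by this rule. The level of these transcripts moved together with the line. The study reports small amounts of pollen in *fsm*, which was viable, and smaller floral organs, and it calls stamen fertility normal. Whether the makeup of the sampled buds differed, and its part in the changes of the PEBP genes, was not tested.

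The *FT* copy *Bra022475*, described in the study's gene list as flowering locus T, encodes a floral promoter. The wild-type libraries F1, F2, and F4 held 10, 14, and 17 of its reads, and the *fsm* libraries M1, M2, and M3 held 1103, 776, and 825. Each *fsm* library was far above each wild-type library, and M1 was the highest. The mean RPKM was 1.03 ± 0.27 (SD, n = 3) in the wild type and 59.4 ± 10.3 (SD, n = 3) in *fsm*. In edgeR, this was a log2 fold change of 5.91 with a standard error of 0.17 (adjusted p = 7.7e-31), or 60.2-fold, and the gene ranked 406th among 35616 by log2 fold change. In the ranking of genes by RPKM within a line, it moved from the 23.1st percentile of genes with reads in the wild type to the 89.6th in *fsm*.

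The study measured this gene by qRT-PCR as well, and the primers are shown because they are the sequences by which it assayed this copy. For the DEGs it assayed, this gene and *BFT* among them, the study reports qRT-PCR trends similar to its RNA-Seq. The RNA came from the same plant samples. They are printed 5′ to 3′ in lower case, as listed by the study.
Bra022475 forward: tccagatgttccaagtcctagc
Bra022475 reverse: gagcacgatacgatgaataccc
Both primers are 22 bases long with a GC content of 50%. Whether they also match the other *FT* copy was not tested.

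The *FT* copy *Bra004117* was the most abundant of the 6 genes in wild-type buds. Its counts were 125, 149, and 143 for F1, F2, and F4, against 286, 234, and 210 for M1, M2, and M3. The libraries of the lines did not overlap, but the distance was small, with the lowest *fsm* library at 14.1 RPKM and the highest wild-type library at 11.3. The mean RPKM was 10.5 ± 1.02 (SD, n = 3) in the wild type and 16.0 ± 2.19 (SD, n = 3) in *fsm*. This was a log2 fold change of 0.69 with a standard error of 0.13 in edgeR (adjusted p = 1.2e-05), or 1.61-fold. It passed the limit of the adjusted p-value but neither limit of the log2 fold change. The adjusted p-value rose to 0.0017 without F1 and to 0.0013 without M1 (edgeR), both above the limit.

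The share of *FT* reads that came from each copy shows the difference between the copies with the depth of the library removed. *Bra022475* supplied 10 of 135 *FT* reads in F1, or 7.41% (95% Wilson interval 4.07 to 13.1%), 8.59% in F2, and 10.6% in F4. In *fsm*, it supplied 79.4% (95% Wilson interval 77.2 to 81.5%) in M1, 76.8% in M2, and 79.7% in M3. The intervals of the 3 libraries overlapped within each line and were far apart between the lines. Means were 8.87% ± 1.63 (SD, n = 3) in the wild type and 78.7% ± 1.58 (SD, n = 3) in *fsm*. *Bra004117* exceeded *Bra022475* by 10.5-fold on average in wild-type libraries, whereas *Bra022475* exceeded *Bra004117* by 3.70-fold in *fsm* libraries.

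**Figure D2:**
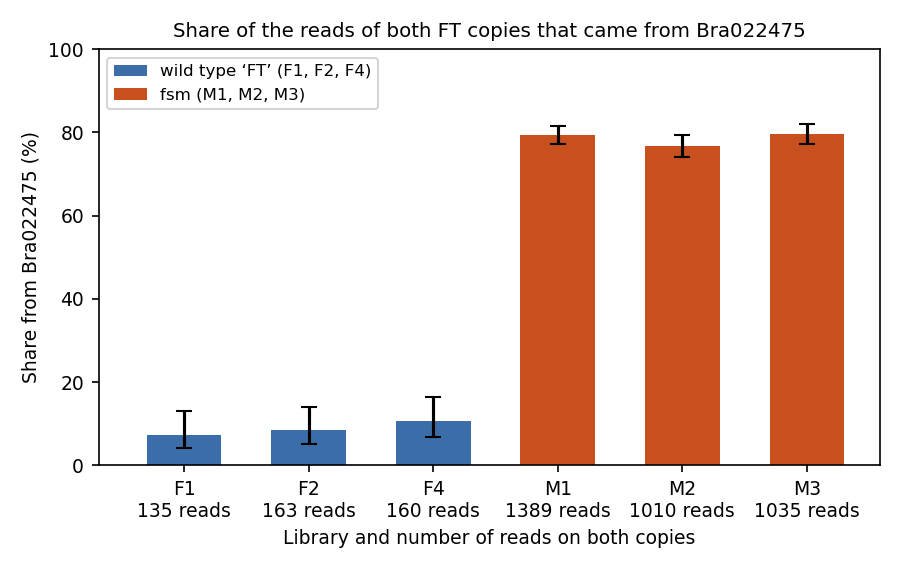
Share of the reads of both *FT* copies that came from *Bra022475* in each library, in percent, with 95% Wilson intervals that cover counting error only and the number of reads below each bar. The wild-type libraries lie between 7.41% and 10.6% and the *fsm* libraries between 76.8% and 79.7%.

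Tested as the log2 ratio of the reads of the copies, with 0.5 reads added to each, the difference between the lines was 5.21. It was -3.33 ± 0.27 (SD, n = 3) in the wild type and 1.88 ± 0.13 (SD, n = 3) in *fsm* (two-sided exact permutation test over libraries, p = 0.1, which is the lowest value possible with 3 libraries a line, and 0.13 after Benjamini-Hochberg adjustment over 4 pairs of copies). The design cannot reach 0.05 in this test, although the ranges of the ratio did not overlap. Summed over both copies, *FT* expression was 11.5 ± 1.25 RPKM (SD, n = 3) in the wild type and 75.5 ± 12.3 RPKM (SD, n = 3) in *fsm*, a ratio of 6.56. Of the difference in RPKM between the lines, 91.3% came from *Bra022475*. The counts are of reads described as uniquely matched. If so, reads that fit both copies equally well would be missing from both, and this was not tested. Whether sequence differences between the lines changed the reads matched to either copy was not tested either.

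*BFT* (*Bra010052*), whose *Arabidopsis* counterpart acts as a TFL1-like repressor of flowering, had the largest fitted log2 fold change of the 6 genes in edgeR. With limma on log2(RPKM + 1), *Bra022475* was ahead, at 4.89 against 4.47, and *Bra009508*, with no wild-type read, cannot be ranked against them. Only 2, 2, and 0 reads came from F1, F2, and F4, whereas M1, M2, and M3 gave 335, 340, and 397. No wild-type library reached 3 reads, so expression there was at the limit of detection, and no *fsm* library was near it. The pooled reads of each line gave a ratio of 235 per library read (95% exact interval 91.6 to 865, counting error only). The fitted log2 fold change of 7.83 had a standard error of 0.29 (adjusted p = 6.8e-27, edgeR) and was the 106th largest increase among the 35616 genes. This standard error comes from the test statistic and understates the counting error of the few wild-type reads. The size of the increase is thus less well known than it implies, and the log2 fold change was 6.67 with a prior count of 2. The mean RPKM in *fsm* was 23.4 ± 2.69 (SD, n = 3), at the 74.0th percentile of genes with reads in that line.

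The level of *BFT* in *fsm* was between those of the *FT* copies. It was above *Bra004117* in each *fsm* library, with 21.4, 22.3, and 26.4 RPKM against 18.4, 15.5, and 14.1. The share of *BFT* in the reads of all 6 genes was 0 to 1.44% in wild-type libraries and 19.0 to 27.2% in *fsm* libraries. M3 had the most reads of *BFT*, while M1 had the most reads of both *FT* copies, so the *fsm* libraries did not rank alike for these genes. The study's primers for *BFT*, shown for the same reason as those for *FT*, were as follows.
Bra010052 forward: ggagacaaacggtgaaggc
Bra010052 reverse: aagtaaacagcagcaacaggtaga
They are 19 and 24 bases long, with a GC content of 57.9% and 41.7%.

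The *TFL1* copies, which encode the antagonist of FT in *Arabidopsis*, had few reads, at most 4 per library in the wild type and 24 in *fsm*. *Bra028815* was counted 0, 2, and 1 times in F1, F2, and F4, and 24, 24, and 15 times in M1, M2, and M3. The wild-type libraries were all below 3 reads, and the *fsm* libraries were all above them. Its log2 fold change of 4.12 had a standard error of 0.72 (adjusted p = 2e-06, edgeR). The pooled reads gave a ratio of 18.4 (95% exact interval 6.03 to 91.8, counting error only), so the size of the increase is poorly known. Without F1, the log2 fold change was 3.58, below the limit of the DEG rule, with an adjusted p of 0.00027 (edgeR).

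*Bra009508*, whose best match in the study's list is a *TFL1* of *Brassica rapa*, was at 0 reads throughout the wild type, with 15, 16, and 12 reads for M1, M2, and M3. It was detected in each *fsm* library and in no wild-type library. Of all 35616 genes, 3.49% had no read in the wild type. Against a limit of 3 reads over the 3 wild-type libraries, expression was 12.6-fold higher in *fsm*, leaving aside the counting error of the *fsm* reads. The fit gave 6.80 on the log2 scale with a standard error of 1.23 (adjusted p = 4.7e-06, edgeR), but its size depends on the prior count, being 2.98 with a prior count of 2. The mean RPKM in *fsm* was 0.93 ± 0.13 (SD, n = 3).

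*Bra005783*, the third *TFL1* copy, was counted 2, 4, and 0 times in the wild-type libraries and 2, 0, and 0 times in those of *fsm*. The libraries of the lines overlapped, and the log2 fold change of -1.53 had a standard error of 1.43 (adjusted p = 0.34, edgeR). A decrease of this gene could hardly be detected at this depth, with 6 reads in all wild-type libraries and 2 in all *fsm* libraries. *Bra005783* did not show the increase of the other *TFL1* copies. In the log2 ratio of reads, *Bra028815* over *Bra005783* was higher in *fsm* by 5.15, and *Bra005783* over *Bra009508* was lower by 5.94, without overlap between the lines (two-sided exact permutation tests, p = 0.1 for each, the smallest possible, and 0.13 after adjustment over 4 pairs). These ratios rest on a few reads and on the 0.5 reads added to each count, since *Bra009508* had no wild-type read. With RPKM and 0.1 added instead, the differences were 3.84 and -4.06, and on leaving out single libraries they were 4.25 to 6.21 and -6.85 to -5.27. The ratio of *Bra028815* to *Bra009508* overlapped between the lines, with a difference of -0.79 (exact permutation test, p = 0.4, adjusted p = 0.4).

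The order of the 6 genes by level differed between the lines. In the wild type, *Bra004117* was highest, 10.2-fold above *Bra022475* in mean RPKM, and *Bra022475* was above the other 4 genes in each library. The other 4 genes had 0 to 0.30 RPKM per library, and their ranges overlapped, so no order among them can be given. In *fsm*, *Bra022475* was highest, 2.54-fold above *BFT*, which was 1.46-fold above *Bra004117*, and these 3 did not overlap. *Bra028815* and *Bra009508* followed at 1.35 and 0.93 RPKM with overlapping ranges, and *Bra005783* was lowest at 0.04. The *TFL1* copies together reached 2.33 ± 0.47 RPKM (SD, n = 3) in *fsm*, against 75.5 RPKM for the *FT* copies and 23.4 for *BFT*. Summed over all 6 genes, the RPKM was 11.8 ± 1.31 (SD, n = 3) in the wild type and 101 ± 11.1 (SD, n = 3) in *fsm*. *Bra022475* accounted for 65.3% of this difference and *BFT* for 26.1%.

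**Figure D3:**
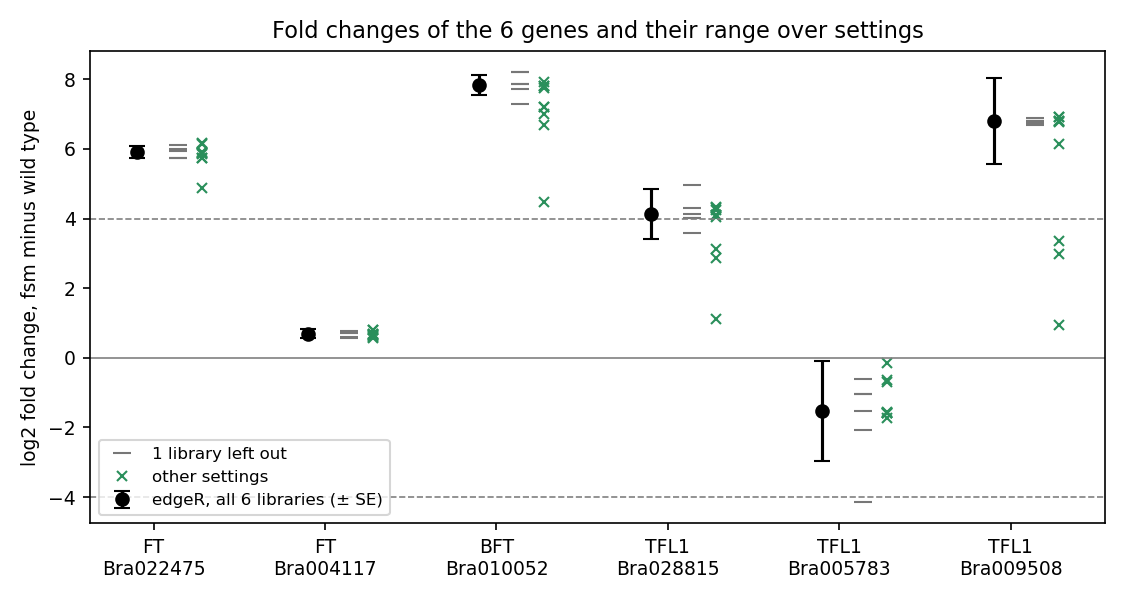
Log2 fold change of each gene (*fsm* minus wild type) with its standard error in edgeR over all 6 libraries (black), after leaving out 1 library in turn (grey dashes), and under the other settings (green crosses), with dashed lines at the limit of 4 in either direction. The standard errors come from the test statistic and are too small for genes with few reads in 1 line. *Bra022475* and *BFT* stay above 4 throughout, whereas *Bra028815* and *Bra009508*, with at most 24 and 16 reads per library, fall below it in some settings.

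The spread between libraries differed from gene to gene. *Bra022475* had a coefficient of variation of 18.0% among the *fsm* libraries, against 3.33% from counting alone, and *BFT* had 10.6% against 5.29%. For *Bra004117* the values were 14.5% and 6.41%. The spread among the *fsm* libraries was thus above this counting error for these 3 genes. This error takes reads as independent, but sequencing was paired-end. Reads of the same fragment would make it larger, and whether the spread would still exceed it was not tested. In the wild type, the variation of *Bra022475* was 26.7% against 27.1% from counting. Among the *fsm* libraries it was 14.3% against 26.4% for *Bra009508* and 24.1% against 21.8% for *Bra028815*. The share of *Bra022475* among *FT* reads in *fsm* varied less than its level. Both copies were highest in M1, but they ranked M2 and M3 in opposite order.

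The coverage column gives the percentage of a gene that reads touched, and it shows whether few reads came from 1 place. *Bra004117* was covered over 96.8 to 99.1% of its length in each of the 6 libraries. *Bra022475* was covered over 75.4, 97.4, and 92.4% in F1, F2, and F4 by 10, 14, and 17 reads, and over 99.2 to 99.4% in *fsm*. Reads of this copy in the wild type were thus spread along the gene. *Bra009508* had 86.8 to 89.8% coverage in *fsm* from 12 to 16 reads, and *Bra028815* had 98.3, 81.3, and 94.3% in M1, M2, and M3.

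Coverage was small where reads were fewest. The 2 reads of *BFT* covered 212 bases in F1 and 133 bases in F2, and the 2 reads of *Bra005783* in F1 also covered 133 bases. A single read of *Bra028815* in F4 covered 125 bases, so the pairs of reads that spanned 133 bases lay almost on top of each other. Whether such reads came from 1 fragment was not tested. The 2 reads of *Bra028815* in F2 and of *Bra005783* in M1 covered 250 bases each and did not overlap.

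**Figure D4:**
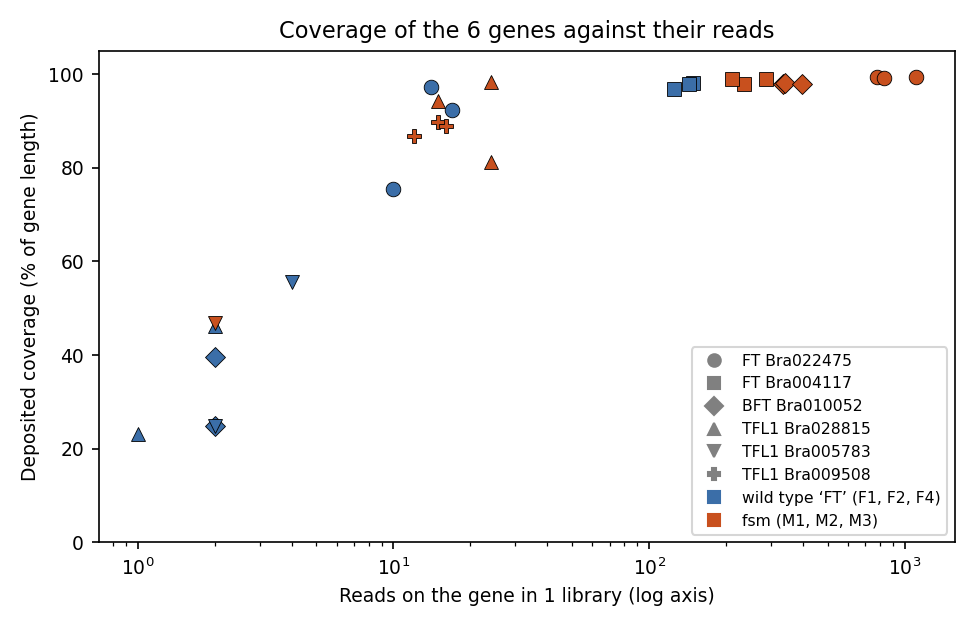
Deposited coverage of each gene, in percent of its length, against its reads in 1 library on a log axis, with the gene as the symbol and the line as the colour. Libraries with 10 or more reads of a gene cover at least 75.4% of it, and those with 4 or fewer cover at most 55.6%.

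Other genes with a described role in flowering time or gibberellin metabolism were set beside the PEBP genes. The 8 genes of this list come from the study's own list of DEGs, so their calls, 6 higher and 2 lower in *fsm*, are fixed by the choice and stand as values. *EFL1* (*Bra000468*), a relative of the clock gene *EARLY FLOWERING 4*, had 0.51 ± 0.15 RPKM (SD, n = 3) in the wild type and 14.7 ± 0.29 (SD, n = 3) in *fsm*. The 3 genes described as *DDF1*, a transcription factor whose overexpression delays flowering in *Arabidopsis*, were all higher in *fsm*. The highest of them, *Bra016763*, went from 21, 18, and 11 reads in the wild-type libraries to 2221, 1680, and 1799 in M1, M2, and M3, a log2 fold change of 6.70 (standard error 0.14). As for *Bra022475*, M1 was the highest of the *fsm* libraries and M2 the lowest.

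The listed gibberellin genes went in both directions. Gibberellin 20-oxidases make precursors of active gibberellin, and gibberellin 2-oxidases inactivate it. Of the 20-oxidase genes, *Bra009285* had 0, 0, and 2 reads in the wild-type libraries and 90, 66, and 59 in *fsm*, whereas *Bra028706* had 24, 16, and 14 reads in the wild type and 0, 2, and 1 in *fsm*. Of the 2-oxidase genes, *Bra033324* had 9, 0, and 14 reads in the wild type and 289, 227, and 222 in *fsm*. *Bra035038* had 11, 9, and 6 reads in the wild type and none in *fsm*. Against a limit of 3 reads over the 3 *fsm* libraries, it was 9.87-fold lower there, leaving aside the counting error of the wild-type reads. Each listed pair of genes with the same described enzyme activity held 1 gene higher and 1 gene lower in *fsm*. The pairs were picked from the study's DEGs, and other genes of these enzyme classes are not given here.

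The genes with the most similar profile were sought among 1034 genes that the study's list of DEGs describes by a name. Members of the family are counted in this number but were left out as possible neighbours. The measure was the distance between log2 values of TMM-normalised CPM plus 0.5 over the 6 libraries. For *BFT*, the nearest was *Bra004756*, described as inositol transporter 1, at a distance of 0.35, with 2, 2, and 0 reads in the wild-type libraries against 382, 390, and 470 in those of *fsm*. For *Bra022475*, it was *Bra010283*, a putative defense-related protein, at 0.52, with 14, 14, and 13 reads in the wild type and 833, 795, and 758 in *fsm*. *Bra009508* was nearest to *Bra017225*, described as the glucosyltransferase UGT73C1 (distance 0.16), and *Bra028815* to *Bra040601*, described as a phosphatase (distance 0.25). *Bra004117* had no close neighbour in this list, with *Bra012890*, described as GATL2, at 3.72, because the list holds only genes with large changes. These likenesses describe 6 libraries of 2 lines and imply no shared control.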

How the data were processed

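Per the file headers and the study's methods, the authors filtered the reads and aligned them with SOAPaligner to the *Brassica rapa* genome (version 1.5). For each gene and library, they deposited a count of reads described as uniquely matched, without normalization. The gene length and the percentage of the gene covered were given beside it. In each library, the summed counts exceed the reads that the study reports as mapped to the genome. What the counted reads were matched to is therefore unclear here. The share of reads that the study reports as mapped was lower in each wild-type library than in each *fsm* library. Its effect on the counts of single genes was not tested. The authors also deposited RPKM, which was recomputed from the counts, the gene length, and the library's summed counts with no gene off by more than a relative 1e-06. Genes not listed in a library were taken as 0 reads. The study used DESeq. Its methods state both separate biological replicates and pooling of RNA before library construction, so p-values measure the spread between libraries, which may be technical. Strand and batch are not given in the sources used here, so a batch and the line cannot be told apart.

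Counts of all 35616 genes were fitted in R 4.3.3 with edgeR 4.0.16 (TMM, quasi-likelihood test, prior count 0.125, no covariates, no filter on low counts, Benjamini-Hochberg adjustment). Standard errors are the log2 fold change over the square root of F. For genes with few reads in 1 line, they are smaller than counting error allows and do not give the precision of the fold change. Alternatives used DESeq2 1.42.0 and limma 3.58.1. Copy ratios were compared by exact permutation over libraries. Intervals and the limit of 3 reads cover counting error only and take each read as independent. The study sequenced paired ends, so reads of the same fragment can both be counted, and the intervals can then be too narrow. The tests were tried on simulated counts. The named genes are the 6 members, 8 flowering genes, 9 pollen genes, and, for each member with a mean of at least 10 reads in its higher line, the nearest described genes. The members and lists were chosen with earlier results of these data known. The copies *Bra004117* and *Bra005783* are named by the list that defined the family and are not described in the study's list of DEGs. Coordinates and protein sequences are not analysed here. The authors' own fold changes and p-values were not used.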

Additional observations from a re-analysis of the deposited data

How the results depend on the processing

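The direction of each of the 6 genes was the same in all 15 other settings in which it could be fitted, and no scaling moved the median of all genes by over 0.1 on the log2 scale. *Bra005783* was removed by edgeR's filter on low counts and has no value there. The 4 genes called by the DEG rule were 4 with DESeq2's size factors, total counts, DESeq2's test, and the filter, and 3 or 4 on leaving out single libraries. They were 2 with a prior count of 2, with limma on log2(RPKM + 1), and with limma on log2(RPKM + 0.1), where *Bra028815* and *Bra009508* fell below a log2 fold change of 4. Fewer genes of the whole series passed as well, 1156, 497, and 1157 against 1873. The log2 fold change of *Bra004117* was 0.57 (adjusted p = 0.0023) and 0.61 (adjusted p = 0.0072) in limma, above the limit of p, and was 0.56 to 0.77 on leaving out single libraries. Those of *Bra022475*, *BFT*, *Bra028815*, *Bra005783*, and *Bra009508* then ranged from 5.73 to 6.11, 7.29 to 8.20, 3.58 to 4.97, -4.13 to -0.61, and 6.70 to 6.89, and the difference in the log2 ratio of the *FT* copies from 5.08 to 5.35.

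The lines share the numbers 1 and 2. With a replicate block for these numbers over 4 libraries, the same 4 genes passed the DEG rule, and 1750 genes did in the whole series. In the same libraries without the block, an alternative chosen after seeing the data, 2 passed each of the limits of 4 and 1, because *Bra028815* (log2 fold change 4.31) and *Bra009508* (6.91) had adjusted p-values of 0.0013 and 0.0021, and *Bra004117* (0.81) had 0.0017 (edgeR). The deviations of same-numbered libraries from their line means had correlations across genes of -0.02 and 0.03, so the numbers were not taken to pair the libraries. Depth limits the *TFL1* copies most, since they had the fewest reads in *fsm*.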
